A study of Mus musculus with 2 samples.

Results

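A set of 10 genes was followed in Gata3 heterozygous and null glands. It holds genes of the contractile and basal layer of the mammary gland, with the cardiac actin gene Actc1 added. The 10 are the actin genes Acta2, Actc1 and Actg2, the motor genes Myh11 and Mylk, the thin filament genes Cnn1, Tagln and Tpm2, the transcription factor gene Trp63 and the oxytocin receptor gene Oxtr. The members were chosen by name, as the features of the array that carry one of these symbols in the platform annotation. Of the 10 genes, 9 had a feature and 1, Oxtr, had none, so the oxytocin receptor was not analysed here. The 9 genes were measured by 16 of the 38976 features, and the whole array stood for 15056 named genes.

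Myoepithelial cells form the outer, basal layer of the mammary ducts and alveoli. They contract when oxytocin from the pituitary binds its receptor, calcium rises, and myosin light chain kinase switches on smooth muscle myosin, which squeezes milk from the luminal cells towards the ducts. Most members are also expressed by the smooth muscle of vessels, while p63, the product of Trp63, maintains basal epithelial cells. Serum response factor and its myocardin family cofactors drive many contractile genes through a short promoter element, the CArG box.

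Adult mice of both genotypes carried the WAP-rtTA-Cre transgenes and received doxycycline for 5 days before the glands were taken. In the group called null here both Gata3 alleles were floxed (GATA-3flox/flox; WAP-rtTA-Cre). In the group called het, which served as the control, 1 allele was floxed (GATA-3flox/+; WAP-rtTA-Cre), so Cre was present on both sides of the comparison. The whey acidic protein (WAP) promoter that gives the transgene its name is a milk protein promoter of luminal secretory cells and not of myoepithelial cells. Whole-gland RNA was hybridised to 2 two-colour arrays. On each, Cy5 marked the het sample and Cy3 the null sample, so the dyes were exchanged on 0 arrays. Whether the arrays held RNA of separate or pooled animals is not stated, so each n = 2 counts arrays and its spread may be technical.

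Each value below is a log ratio of the channels, read as log2, and its numerator is not given. A positive value means more RNA in het glands if the Cy5 channel was the numerator. It means more in null glands if Cy3 was, and every sign below then turns. A dye bias of a probe would have the same sign on both arrays and cannot be told apart from genotype. The files hold ratios without levels, so expression of the myoepithelial markers in these glands could not be checked. In whole-gland RNA, fewer cells of a type and less RNA per cell cannot be told apart. The median over all features was -0.00 on array 1 and -0.03 on array 2, with SDs of 0.67 and 0.44. Gata3, the deleted gene, had 1 feature with ratios of 1.60 and 0.21. It did not pass the gene-level test (limma, adjusted p = 0.156), and since the place of the probe relative to the deleted part is not given, it does not settle the direction.

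Among the members, cardiac actin stood above the other actins on both arrays when the features of a gene were averaged. The upstream sequences of Actc1 and Acta2 are shown because both genes are textbook targets of serum response factor. This pair was chosen with its ratios known. Each run is the 250 bases before an annotated RefSeq start (GRCm38.p6), 5′ to 3′ on the strand of the gene, at chr2:114052876-114053125 (minus strand) for Actc1 and chr19:34255374-34255623 (minus strand) for Acta2. Capitals mark CArG boxes with at most 1 mismatch.
Actc1: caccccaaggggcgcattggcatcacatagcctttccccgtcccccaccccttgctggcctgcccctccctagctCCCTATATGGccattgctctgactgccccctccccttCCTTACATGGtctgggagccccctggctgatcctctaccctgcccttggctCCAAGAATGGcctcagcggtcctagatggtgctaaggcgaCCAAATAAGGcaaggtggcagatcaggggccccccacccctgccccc
Acta2: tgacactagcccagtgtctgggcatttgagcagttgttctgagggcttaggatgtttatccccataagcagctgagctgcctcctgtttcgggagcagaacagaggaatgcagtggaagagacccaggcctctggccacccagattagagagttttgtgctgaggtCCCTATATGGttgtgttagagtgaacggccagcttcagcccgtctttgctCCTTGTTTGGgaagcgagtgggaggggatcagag

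The CArG box reads the same on both strands, so 1 scan covers both. The Actc1 window held 4 boxes, of which the one starting 47 bases before the start, CCAAATAAGG, matched exactly and the others had 1 mismatch. The Acta2 window held 2 boxes with 1 mismatch each, CCCTATATGG and CCTTGTTTGG, starting 84 and 34 bases before the start. The first of these, CCCTATATGG, was also in the Actc1 window, starting 175 bases before the start. Among 32851 such windows in the RefSeq table, 18.6% held a box with up to 1 mismatch, 2.96% held 2 or more, and 1.47% held an exact box. In 17 windows, 0.0517%, there were 4 or more boxes. Windows were at hand for 6 members and not for Actg2, Myh11, Tagln and Trp63. Those of Cnn1, Mylk, Tpm2 and Oxtr held no box. These matches describe letters in a window and do not show binding, and a link between boxes and ratios was not tested.

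Actc1 encodes the alpha-actin of heart muscle, which is nearly the same protein as the smooth muscle actins. Its first feature gave 0.55 on array 1 and 0.90 on array 2, and its second gave 2.13 and 1.44. Both features were positive on both arrays, and the second, at 4.36-fold and 2.72-fold, stood at percentile 99.5 and 99.9 of all features. Its mean of 1.78 ranked 30 from the top of the 38976 features. The 2 features lay 1.57 apart on array 1, at percentile 92.1 of the 3598 genes with 2 features. On array 2 they lay 0.55 apart, at percentile 68.3. Averaged over its features, Actc1 had ratios of 1.34 and 1.17, a mean of 1.25 ± 0.12 (SD, n = 2), or 2.38-fold, with a limma 95% interval from 0.83 to 1.68. From array 1 to array 2 the first feature rose and the second fell, which partly cancelled in the average. The SD and interval leave out the disagreement of the features. Their means, 0.72 and 1.78, both lay outside that interval.

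Acta2, the smooth muscle alpha-actin that is the standard marker of myoepithelial cells, had ratios of -0.22 and -0.35 at its first feature and -0.07 and 0.02 at its second. All lay within 0.35 of 0. Their average was -0.15 ± 0.02 (SD, n = 2; limma adjusted p = 0.668), with an interval from -0.57 to 0.26. Actg2, the gamma-actin of enteric smooth muscle, had ratios of -0.36 and -0.02 at its single feature, averaging -0.19 ± 0.24 (SD, n = 2; limma adjusted p = 0.612).

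**Figure D1:**
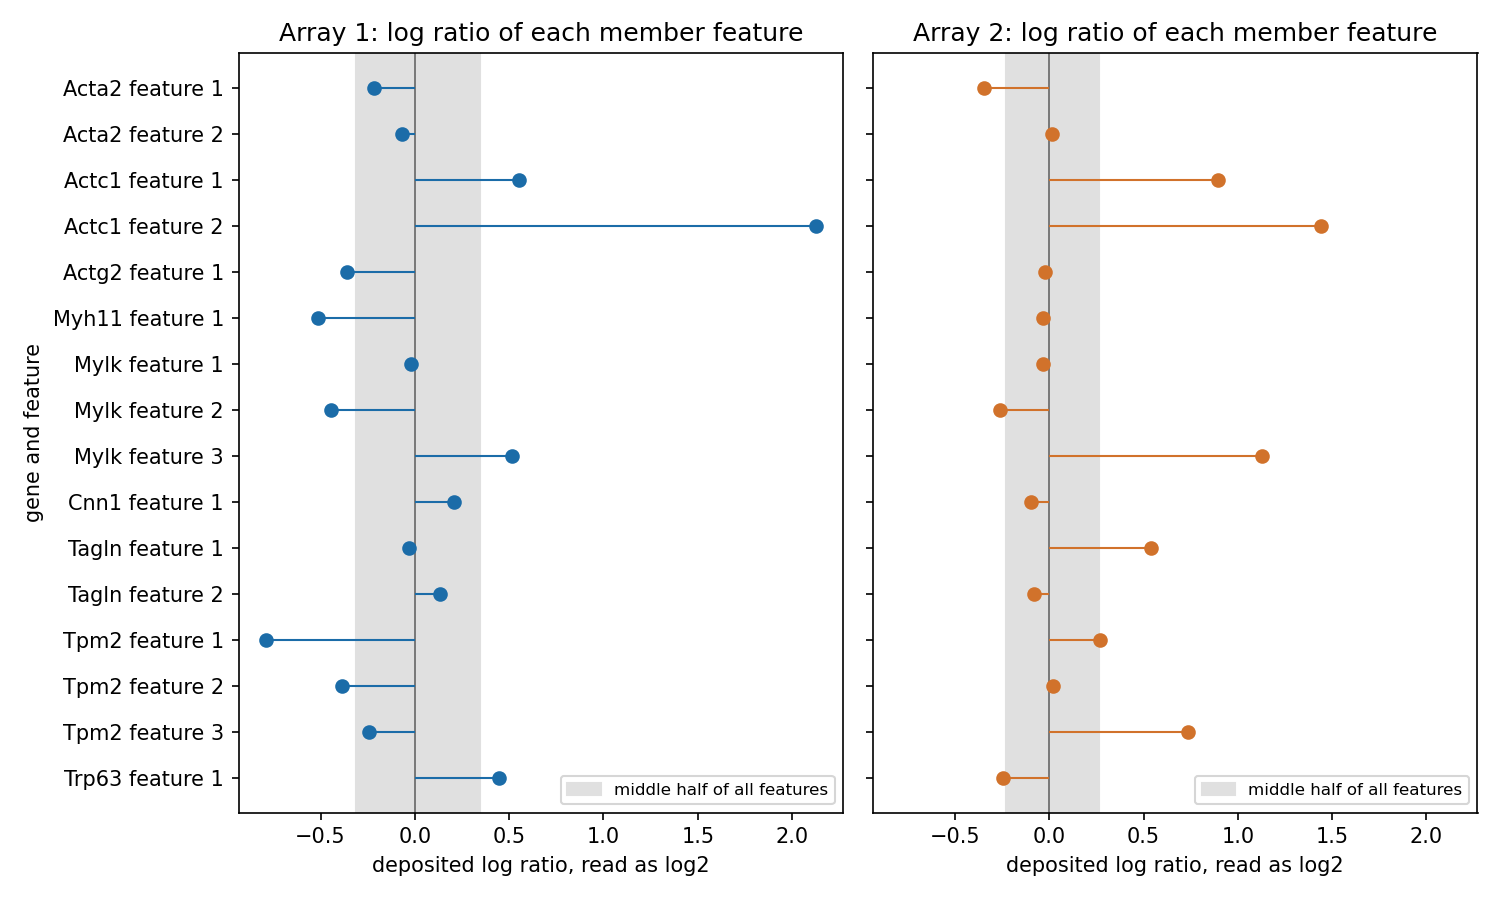
Log ratio of each of the 16 member features on array 1 (left) and array 2 (right), read as log2; the grey band spans the middle 50% of all features. The second Actc1 feature lies far to the right on both arrays, at 2.13 and 1.44.

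Against its relatives, the Actc1 ratio exceeded that of Acta2 by 1.48 on array 1 and 1.33 on array 2, a difference of 1.41 ± 0.10 (SD, n = 2). That SD also leaves out the disagreement between the features of each gene. The Actc1 ratio exceeded that of Actg2 by 1.70 and 1.19. Outside the members, the skeletal muscle actin Acta1 stood at 0.07 and 0.42, the cytoplasmic actin Actg1 0.59 and 0.18, and the beta-actin-like gene Actbl2 0.37 and 0.11. With features averaged, Actc1 was the highest of the 7 measured actins on each array. The first Actc1 feature alone, at 0.55 on array 1, lay below Actg1 at 0.59. These differences are descriptions, since 2 arrays cannot bring an exact sign-flip test below p = 0.5. Cytoplasmic beta-actin, Actb, had 32 features, which ranged from -2.70 to 0.46 on array 1 and from -0.66 to 0.68 on array 2. Actins are close in sequence and probe sequences were not used here, so signal shared between actin probes was not tested.

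**Figure D2:**
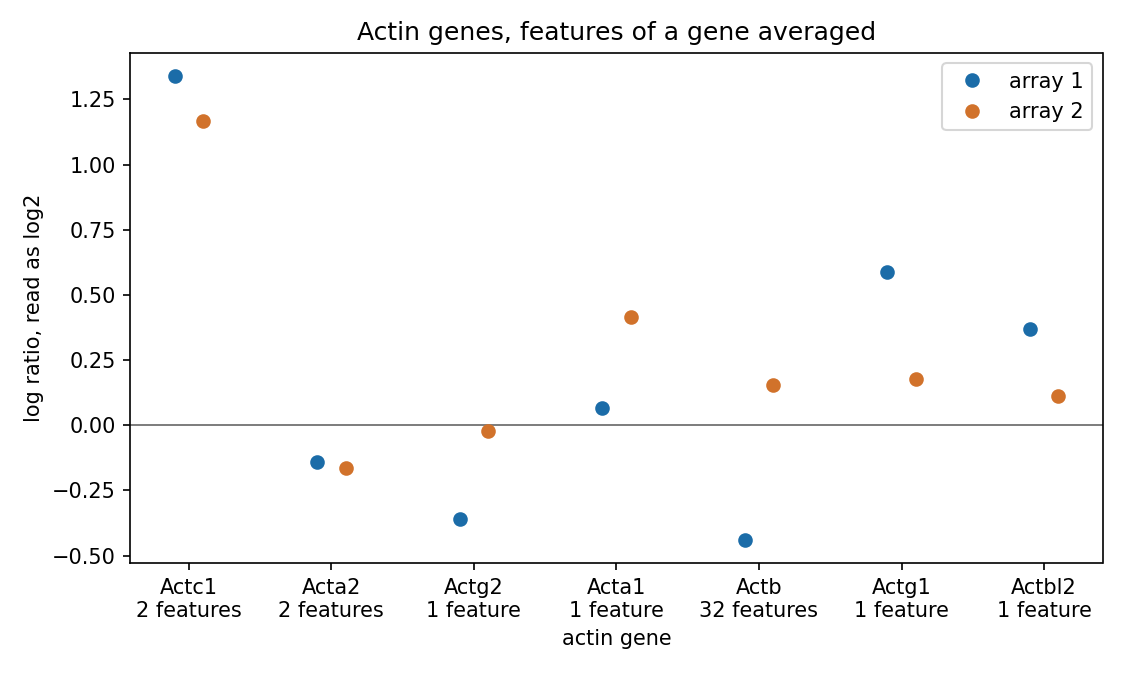
Log ratio, read as log2, of each measured actin gene on array 1 (blue) and array 2 (orange), with the features of a gene averaged. Actc1 lies at 1.34 and 1.17, above the other 6 genes on both arrays.

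Myh11, the smooth muscle myosin heavy chain, gave -0.52 on array 1 and -0.03 on array 2 at 1 feature. It was the most negative member, and its arrays averaged -0.27 ± 0.34 (SD, n = 2; limma adjusted p = 0.475). Mylk, the kinase that phosphorylates the myosin light chain, had 3 features that did not share a sign. The first gave -0.02 and -0.03, the second -0.45 and -0.26, and the third 0.52 and 1.13. On array 2 they spanned 1.39, a range at percentile 94.98 of the 1116 genes with 3 features. All 3 are annotated to one transcript record, and since Mylk makes long, short and kinase-free products from separate promoters, which of them each probe reads is not given here. The average of the 3 features, 0.15 ± 0.18 (SD, n = 2; limma adjusted p = 0.695), therefore covers features of both signs. Without the third feature it was -0.19 (limma adjusted p = 0.588).

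Among the thin filament genes, Tpm2, the beta-tropomyosin, had 3 features that moved in parallel between the arrays. Their ratios were -0.79 and 0.27 at the first, -0.38 and 0.02 at the second, and -0.24 and 0.74 at the third. All 3 were negative on array 1 and positive on array 2. The gap between the arrays, 0.81 for the average, was at percentile 91.8 of all genes, against a median gap of 0.27. The mean was -0.06 ± 0.58 (SD, n = 2; limma adjusted p = 0.911).

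Calponin, Cnn1, which binds actin and restrains myosin, had ratios of 0.21 and -0.10 at 1 feature (limma adjusted p = 0.903). Tagln, which encodes the actin-binding protein SM22, had ratios of -0.03 and 0.54 at its first feature and 0.14 and -0.08 at its second. Each Tagln feature changed sign between the arrays, and their average was 0.14 ± 0.12 (SD, n = 2; limma adjusted p = 0.704). Trp63, the basal regulator, gave 0.45 on array 1 and -0.24 on array 2 (mean 0.10 ± 0.49, SD, n = 2; limma adjusted p = 0.839). Cnn1, Tpm2 and Trp63 thus had opposite signs on the arrays.

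**Figure D3:**
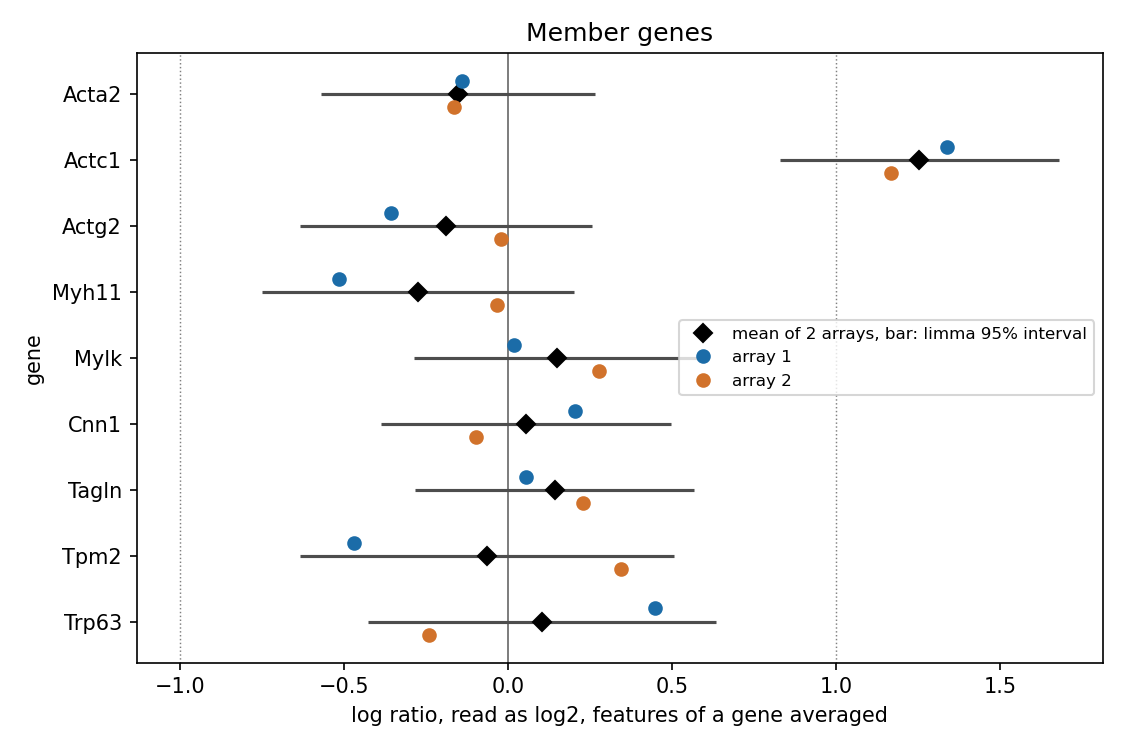
Log ratio, read as log2, of the 9 measured members on array 1 (blue) and array 2 (orange), with the features of a gene averaged, the mean of both arrays (diamond) and its limma 95% interval (bar); dotted lines mark 2-fold. The interval of Actc1 lies above 0, from 0.83 to 1.68, and the other 8 include 0.

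In the test over all features (limma, Benjamini-Hochberg), 0 of the 16 member features passed an adjusted p of 0.05, as did 0% of all features. An unadjusted p under 0.05 was seen for 3 member features, both of Actc1 (limma adjusted p = 0.0975 and 0.0512) and the third of Mylk (0.0925). The share at that level was 22.0% over all features, above that of 3 in 16. In the test over genes, 1 of 9 members passed, 11.1%, against 8.26% of all genes (7.28% on the positive and 0.983% on the negative side). That share is near the background. Actc1 was the member that passed (limma adjusted p = 0.0336), and the value is the lowest in the fit, shared by 510 genes. The call rests on the second feature. Without it Actc1 stood at 0.72 (limma adjusted p = 0.0673), and without the first at 1.78 (0.0337).

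The Actc1 ratio was set beside those of olfactory receptor genes, a family of the nasal epithelium. Of the 843 measured by name, 242 passed the same test on the positive side, 28.7%, and 2 on the negative side. Their medians were 0.52 on array 1 and 0.42 on array 2, and 84 of them had a mean at or above that of Actc1. Whether what these genes share, such as weak signal, has a part in the Actc1 ratio was not tested, since spot intensities were not used here.

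By fold, the second Actc1 feature was the only member feature at least 2-fold from 0 with one sign on both arrays, against 2.14% of all features on the positive and 0.254% on the negative side. On array 1 alone 1 member feature reached 2-fold, 6.25% of the 16 against 13.3% of all features. On array 2 alone 2 did, 12.5% against 3.61%, and the other one was the third of Mylk.

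**Figure D4:**
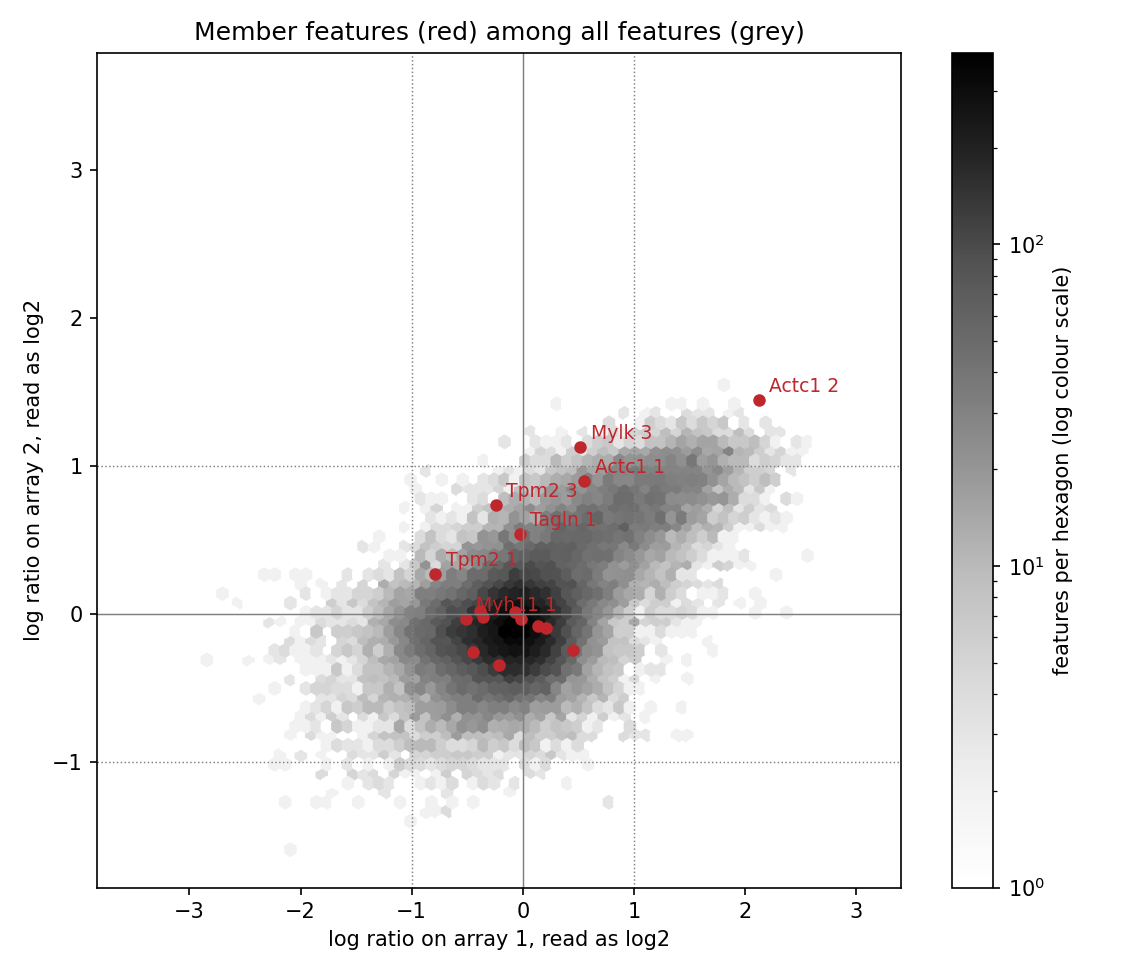
Log ratio on array 1 (horizontal) and array 2 (vertical), both read as log2, for the 16 member features (red) over all 38976 features (grey, darker for more features); dotted lines mark 2-fold. The second Actc1 feature lies at the end of the positive arm, and most other members lie within the dense centre.

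Of the 9 genes 3 were positive on both arrays (Actc1, Mylk and Tagln), 3 were negative on both (Acta2, Actg2 and Myh11) and 3 had opposite signs. Over all genes these shares were 33.7%, 34.1% and 32.1%. Of the 16 features 3 were positive, 5 negative and 8 of opposite sign, where all features gave 30.7%, 34.8% and 34.5%. The median over the 9 genes was 0.02 on array 1 and -0.02 on array 2, beside 0.01 and -0.01 over all genes.

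For the 8 members other than Actc1, the means lay between -0.27 and 0.15, with limma adjusted p from 0.475 to 0.911. With the features of a gene averaged, all 8 of their 95% intervals included 0 and stayed within 2-fold. The lowest limit was -0.75, 1.68-fold, for Myh11, and the highest 0.63, 1.55-fold, for Trp63. These intervals borrow the spread of other genes and cover array error, not a shared dye bias or disagreement between the features of a gene. In the fit over features, the third Mylk feature had a mean of 0.82 with an interval from 0.26 to 1.38. The intervals of the first and second Mylk features included 0. A p that misses the threshold does not show that these genes were equal in the genotypes.

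The background for the unadjusted counts of the lists that follow is 23.8%, the share of the 15056 genes whose p before adjustment was under 0.05. Other contractile and cytoskeletal genes of smooth muscle gave medians of -0.09 on array 1 and -0.18 on array 2 over 14 of 21 genes measured. Of these 14, 5 had an unadjusted p under 0.05 and 1 passed the test, with a negative ratio. This was Ppp1r14a, which encodes the CPI-17 inhibitor of myosin phosphatase, with ratios of -1.33 and -0.62 (mean -0.98 ± 0.51, SD, n = 2; limma adjusted p = 0.0495). The tropomyosin Tpm1 stood at -0.58 and -0.77 (limma adjusted p = 0.0713), the intermediate filament gene Des at -1.17 and -0.18, and Fhl1 at 1.51 and 0.03, and none of these passed. Of the 14 genes 7 were negative on both arrays, 3 positive and 4 of opposite sign.

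Regulators of the contractile genes had means between -0.31 and 0.15, and 0 of 10 measured passed (0 at an unadjusted p under 0.05). Srf, serum response factor, had ratios of -0.16 and -0.14, its cofactor Myocd -0.37 and -0.24, and the competing factor Elk1 -0.27 and -0.25. In oxytocin signalling 0 of 13 measured genes passed (1 at an unadjusted p under 0.05). Itpr3, a calcium release channel, had ratios of 1.46 and 0.59 (limma adjusted p = 0.0552), and the G protein subunit gene Gna11 -0.54 and -0.21. Itpr2, a second release channel, stood at -0.48 and -0.18, and Rgs2, which shortens G protein signals, at 0.52 and 0.09.

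Among close relatives of the members, 0 of 19 measured passed (5 at an unadjusted p under 0.05). The non-muscle myosin gene Myh9 stood at -0.24 and -0.76, and the vasopressin receptors Avpr1a and Avpr1b, relatives of the oxytocin receptor, at 0.81 and 0.24 and at 0.58 and 0.38. Basal genes other than keratins included Irx4 at -0.42 and -0.54, Ngfr at 0.36 and 0.21, Snai2 at 0.22 and 0.30 and Cdh3 at -0.28 and -0.18, with 0 of 12 past the test (1 at an unadjusted p under 0.05). Of the p63 targets 0 of 10 passed (3 at an unadjusted p under 0.05). Bnc1, basonuclin, had ratios of 1.86 and 0.63 (limma adjusted p = 0.0558), the plakophilin gene Pkp1 -0.72 and -0.37, Fras1 0.40 and 0.65, and the kinase gene Ripk4 0.32 and 0.45.

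Genes of other cells that share the members were set beside them. For pericytes and vascular smooth muscle the medians were 0.11 and 0.03, with 0 of 13 past the test (2 at an unadjusted p under 0.05). Heyl stood at 0.47 and 0.98, Angpt1 at 0.52 and 0.46, Cox4i2 at -0.68 and -0.21 and Rgs5, a pericyte marker, at 0.35 and 0.33. Heart muscle genes, which share Actc1, had 0 of 12 past the test (4 at an unadjusted p under 0.05), with 6 positive and 5 negative on both arrays. The light chain gene Myl3 (0.66 and 0.80; limma adjusted p = 0.0555) and the heavy chain gene Myh6 (0.79 and 0.60) were positive, and the troponin gene Tnnc1 (-1.04 and -0.47) and the light chain gene Myl7 (-0.82 and -0.20) negative. In skeletal muscle 0 of 13 passed (4 at an unadjusted p under 0.05), with Tnnc2 at -1.10 and -0.39, Casq1 at -0.57 and -0.85, Tnnt1 at -0.34 and -0.71 and Pvalb at 0.64 and 0.61. The part of these cells in the member ratios was not tested.

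Luminal genes had medians of -0.01 on both arrays, and 1 of 13 passed (4 at an unadjusted p under 0.05). The gene that passed was Cd24a, a surface glycoprotein, at 1.22 and 0.91 (limma adjusted p = 0.0336). The luminal keratins Krt8 (-0.81 and -0.44) and Krt18 (-0.89 and -0.35) and the estrogen receptor gene Esr1 (0.73 and 0.48) did not pass. Medians for fibroblasts were -0.47 and -0.09, with Col1a1 at -1.79 and -0.07, Fn1 at -0.45 and -0.51, Dcn at -0.66 and -0.20 and Mmp2 at -0.47 and -0.22. Of the 9 fibroblast genes 6 were negative on both arrays, 0 positive and 3 of opposite sign. For white adipocytes the medians were -0.62 and 0.04, with Adipoq at -1.74 and -0.41, Car3 at -1.77 and -0.15, Lep at 0.50 and 0.66 and Plin1 at -0.81 and -0.14. In the endothelium they were 0.07 and 0.24, with Kdr at 0.66 and 0.56, Cldn5 at -0.94 and -0.17, Tek at 0.39 and 0.62 and Emcn at 0.26 and 0.16. None of the fibroblast, adipocyte or endothelial genes passed (2 of 9, 3 of 8 and 3 of 6 at an unadjusted p under 0.05, where all genes gave 23.8%). In all, 2 of 150 measured genes of these 13 lists passed, 1.33% against 8.26% of all genes. This difference was not tested. At an unadjusted p under 0.05 the lists lay on both sides of the 23.8% of all genes, from 0 of 10 regulators to 3 of 6 endothelial genes.

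**Figure D5:**
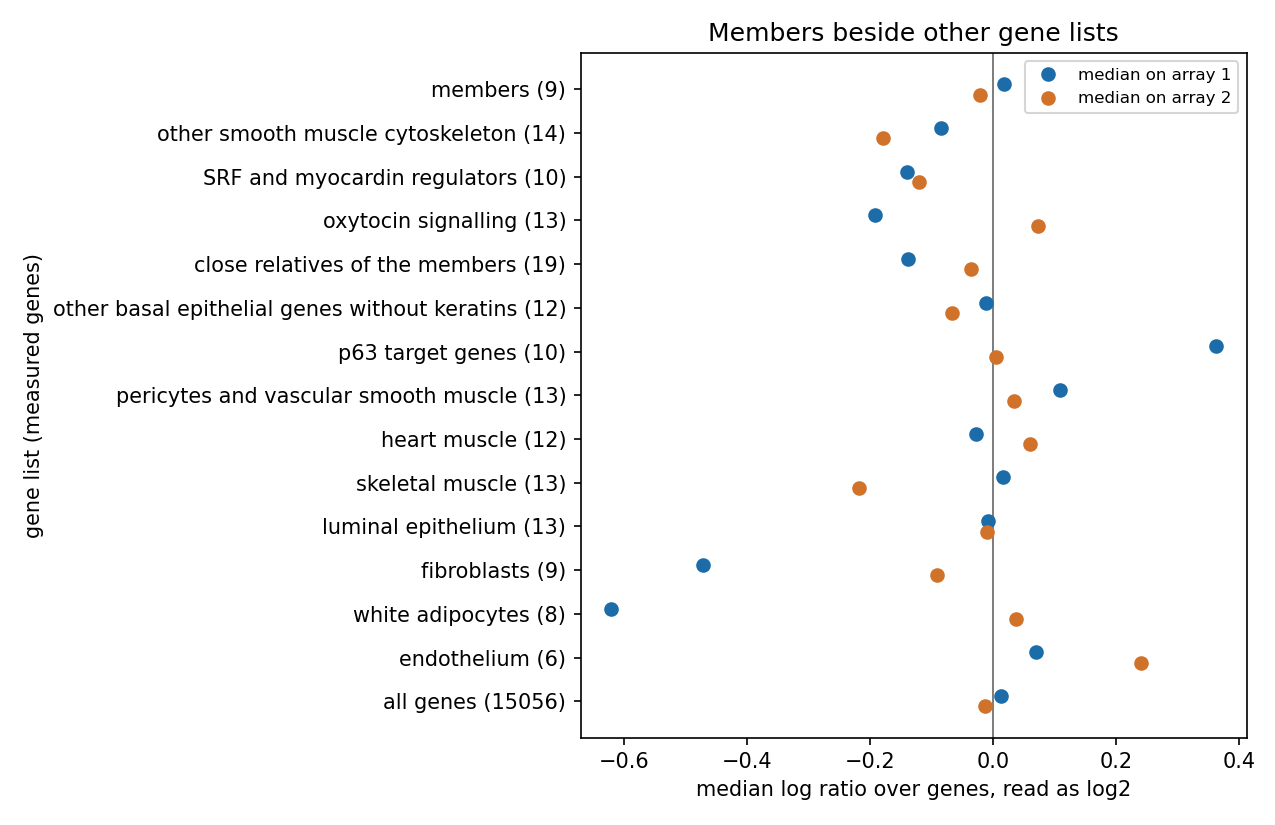
Median log ratio, read as log2, of the 9 measured members, of 13 other gene lists and of all 15056 genes on array 1 (blue) and array 2 (orange), with the number of measured genes in brackets. The members lie at 0.02 and -0.02, and the adipocyte and fibroblast medians lie lowest on array 1, at -0.62 and -0.47.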

How the data were processed

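Mammary gland RNA was measured on 2 two-colour spotted oligonucleotide arrays. The deposited values are log ratios, read here as log2, to which the authors applied a print-tip lowess in Acuity 4.0, as the design text of the series states. Which log base, numerator, centring, background correction and spot filter they used is not given; another base would rescale every value. Spot intensities were not used here. With 2 arrays, their number sets the precision.

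Platform annotation named 22973 features with 1 symbol, 0 with several and 16003 with none, and all named features matched the RefSeq table of GRCm38.p6 by Entrez ID. Each row was set against 0 in limma 3.58.1 (R 4.3.3; intercept alone, default prior, two-sided, Benjamini-Hochberg over all rows, threshold 0.05), over 38976 features and, with features of a gene averaged, over 15056 genes. The arrays leave 1 residual degree of freedom, and the prior added 5.32 over features and 5.41 over genes. No dye term could be fitted. All 10 members are named, and from each of 13 lists those past the test and up to 4 genes of one sign on both arrays with the largest absolute mean; 1 gene of the regulator list is not reported here. The actins outside the members were named to set beside Actc1, and the olfactory receptors were added with their values known. Members, lists and tests were chosen with earlier results of these data known. On simulated data over 15056 genes, 41 of 50 genes shifted by 1 were called, 50 of 50 at 2, 3 and 4, and 97 of 14856 unshifted genes. Over features, 1 of 50 shifted by 1 was called, 48 of 50 at 2, 50 of 50 at 3 and 4, and 15 of 38776 unshifted. In both simulations the share of unshifted rows among the calls was thus above the nominal 0.05, and it was far above it over genes. There the 97 unshifted genes called outnumbered those called at any 1 size of shift. Gene-level calls such as those of Actc1, Ppp1r14a and Cd24a carry this limit. A planned comparison of protein sequences was not made. Figures were drawn with matplotlib 3.10.9.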

Additional observations from a re-analysis of the deposited data

How the results depend on the processing

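The count of 0 member features past the test lay at the edge of the threshold. It became 1 after centring the arrays on their medians, 1 after giving them the same median absolute deviation, 3 after quantile normalization, 2 with 48 equal runs of consecutive features scaled alike, 3 after leaving out features with a gap between arrays above 1, and 3 at an adjusted p of 0.1. Over all features these settings called 2724 (6.99%), 5014 (12.9%), 5121 (13.1%), 3362 (8.63%), 7452 (20.5%) and 4929 (12.6%). The filter removes features with a large spread by construction. It left 36399 features and took out the first of Tpm2. The count of 1 member gene past the test was the same in the 8 settings tried. The share of all genes called ran from 6.26% with the median of the features of a gene to 19.5% with the filter. The member share of 11.1% in the main fit lay within that range. The count of 1 feature at least 2-fold on both arrays was 0 at a 3-fold minimum, and 1 to 2 with 1 array left out. Member genes negative on both arrays numbered 1, against 3, with the runs scaled alike. Genes of the other lists past the test numbered 8, against 2, after centring. Over all genes the share called was 11.9% at that setting, against 8.26%. The causes of these changes were not tested.

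Mean ratios of the members kept their direction and side of the threshold in 77 of 84 alternatives with a test. With 1 array left out, which leaves no test, 15 of 18 values kept their sign; the exceptions were Cnn1 (-0.10), Tpm2 (0.34) and Trp63 (-0.24) without array 1. Actc1 lay between 1.20 and 1.31 under the other settings, was 1.17 and 1.34 with 1 array left out, and 0.72 or 1.78 with a feature left out (an alternative chosen after seeing the data). Mylk turned to -0.025 with the median of its features and to -0.19 without the third. Tpm2 turned to 0.024 with equal deviation, 0.0079 after quantile normalization, and 0.033 with the filter or without its first feature. The ratios already pair the genotypes within each array, so no further block was fitted.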
